A study of Mus musculus with 8 samples.

Results

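Single mouse kidney cells were compared between entospletinib and vehicle 7 days after ischemia-reperfusion injury (IRI), over all genes and within classes of cells. The members are all cells that the deposited cell table assigns to the entospletinib pool or to the vehicle pool of day 7 and that had more than 300 detected genes, fewer than 20000 counts and less than 25% of counts from mitochondrial (mt-) genes. There were 13715 such cells, 7605 with entospletinib and 6110 with vehicle, of 90855 cells that passed the same limits among the 120281 barcodes of the series, and no barcode occurred more than once. The series holds 7 conditions, each 1 pool of cells from 3 mice. Male C57BL/6 mice had the blood flow of the left kidney stopped and restored while the right kidney stayed in place. The entospletinib group was injected intraperitoneally with the drug before IRI and then daily, the vehicle group with its solvent dimethyl sulfoxide (DMSO), and the kidneys of both were taken at day 7. The uninjured control was a pool of 11205 cells from mice whose kidneys had not been touched, and its values are given as a reference. The age of the mice was not given in the sources used here. Kidneys were digested, pooled and sorted for viable cells with a scatter gate that enriches leukocytes, so all shares describe the sorted suspension.

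Entospletinib inhibits spleen tyrosine kinase (SYK), which carries signals from the B cell receptor, from Fc receptors, from several C-type lectin receptors and from integrins of myeloid cells. After renal ischemia, neutrophils and Ly6C-positive monocytes enter the kidney from the blood, and mediators such as interleukin 1 and the CXC chemokines draw in more of them. The proximal tubule of the outer medulla and the peritubular capillaries around it are harmed most by ischemia, and glomeruli are relatively spared.

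With 1 pool for each condition there was no replicate between mice, and every comparison is a description with no significance test behind it. The 8 sublibraries are portions of the same cells taken before sequencing, and the SD over them, given after ± with n = 8, measures technical error alone. Intervals are exact 95% intervals (Clopper-Pearson for a share, Poisson for a level) and cover counting error only. A level is a gene's summed counts scaled to the total counts of that class and pool (counts per 1e6, CPM). A log2 ratio is entospletinib over vehicle relative to the median ratio of the genes compared in the same cells, so that a negative value is lower with entospletinib. A gene is called past the fold when its relative log2 ratio is at least 1 or at most -1, that is 2-fold, and has the same direction in all 8 sublibraries, and genes were compared when their mean over both pools reached 50 CPM.

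The 2 pools differed before any class was drawn. Of the barcodes, 66.4% passed the limits with entospletinib and 47.1% with vehicle, against 55.3% in the control. At least 25% mitochondrial counts were found in 33.2% of the entospletinib barcodes and in 46.3% of the vehicle barcodes. At most 300 genes were found in 2093 of 11455 entospletinib and in 6304 of 12968 vehicle barcodes, and the median over vehicle neutrophils kept was 584 genes. The kept cells held 24853279 and 21269083 counts, with a median of 2742 counts and 1328 genes per cell with entospletinib and of 2526.5 counts and 1055 genes with vehicle. Ribosomal protein genes made up at least 1.5% of counts in 12.1% of entospletinib cells, 4.98% of vehicle cells and 5.41% of control cells. Called doublets, kept in all values unless stated, were 14.1% with entospletinib and 17.5% with vehicle. The part that these differences have in the results below was not tested.

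Cells were gated into 18 classes by marker genes, a cell needing at least 2 detected markers of its class, and a class was compared between the pools when each pool held at least 100 of its cells, which 9 classes did. The classes are neutrophil-like, macrophage-like and so on, after their markers, and are written below without the ending. The 10 leading genes of each of the 9 compared classes, against all other cells, held between 2 and 8 markers of that class and none of another class. The cells were gated by these same markers, so this is no independent check of the classes. Cells with markers of several lineages formed 5.39% of the entospletinib pool and 6.27% of the vehicle pool, and cells with no class 3.13% and 6.35%. *Syk* itself, on chromosome 13 from 52583173 to 52648792 on the plus strand (mm10), was found at 1685 CPM in B cells of the entospletinib pool and 1648 CPM in those of the vehicle pool, at 881 and 771 CPM in type 2 conventional dendritic cells (cDC2), at 850 and 1052 CPM in neutrophils, at 805 and 656 CPM in classical monocytes and at 460 and 464 CPM in macrophages. It was lowest in the proximal tubule, at 16.1 and 13.3 CPM. These levels are not centred on the median gene. *Syk* was compared in 6 of the 9 classes, lay below the median gene in all 6 and was past the fold in none. Its relative log2 ratio was -0.43 ± 0.44 in neutrophils, -0.36 ± 0.12 in macrophages, -0.10 in B cells and -0.08 in both cDC2 and classical monocytes. In the other classes, T cells among them, it was under the level for a comparison and could not be called.

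Neutrophils, the phagocytes that come first to injured tissue, were the class that differed most in share. They made up 26.3% of the vehicle pool (1607 cells, interval 25.2 to 27.4%), 1.83% of the entospletinib pool (139 cells, interval 1.54 to 2.15%) and 0.741% of the control pool (83 cells). The 8 sublibraries ranged from 23.9 to 28.9% with vehicle and from 1.02 to 2.83% with entospletinib, and the ranges do not overlap. The share was thus 14.4-fold lower with entospletinib, a log2 ratio of -3.85 ± 0.46 (SD, n = 8), and still above the control. Among leukocyte classes alone neutrophils made up 33.4% with vehicle and 2.91% with entospletinib. Classical monocytes, the Ly6C-positive precursors of inflammatory macrophages, were 5.35% with vehicle, 2.92% with entospletinib and 1.37% in the control, a log2 ratio of -0.87 ± 0.32. Nonclassical monocytes, which patrol the vessel wall, went the other way, from 0.507% with vehicle to 1.05% with entospletinib and 0.937% in the control, in 7 of 8 sublibraries. Shares are parts of a whole, so a share that is lower in 1 class raises the others.

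**Figure D1:**
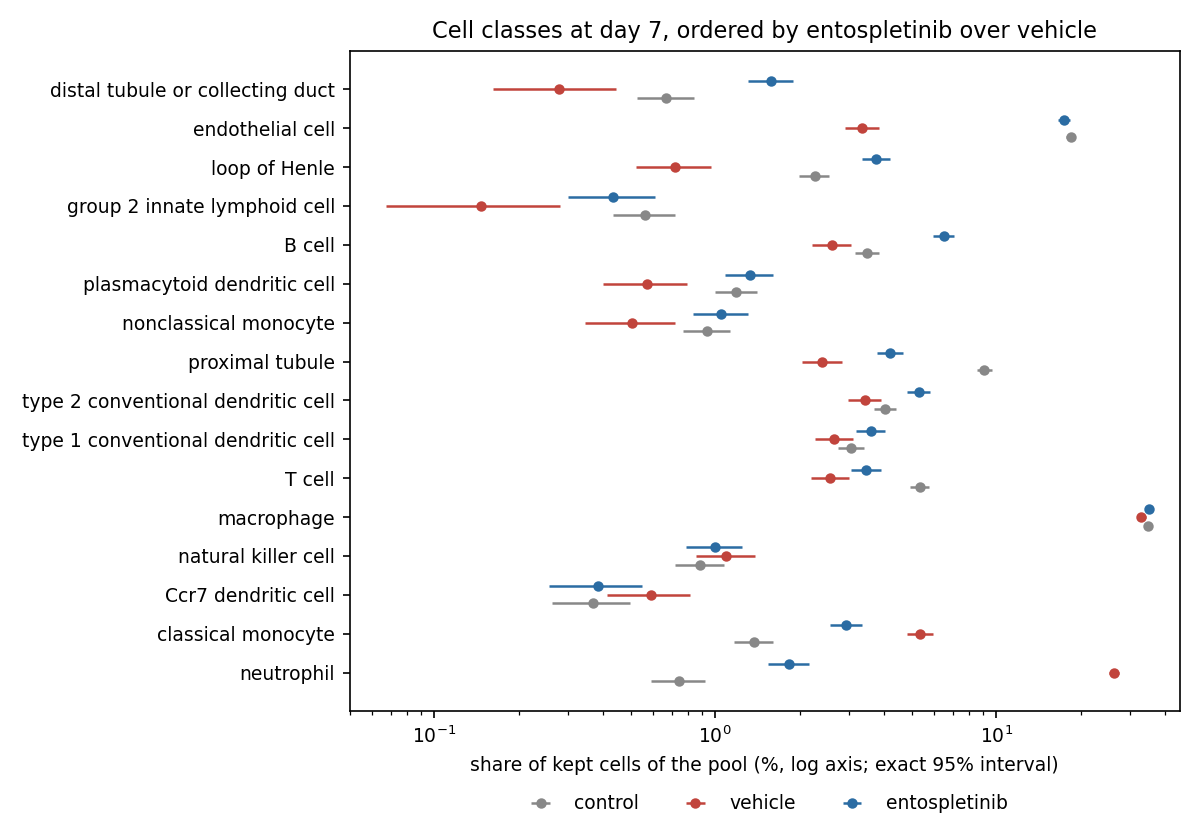
Share of each gated cell class in the control, vehicle and entospletinib pools at day 7 (percent of kept cells, log axis, points with exact 95% intervals, 1 pool per condition). Neutrophils stand alone at 26.3% with vehicle against 1.83% with entospletinib, while endothelial cells lie at 3.34% with vehicle and at 17.5 and 18.4% with entospletinib and in the control.

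Endothelial cells, which line the capillaries, were 3.34% of the vehicle pool (204 cells, interval 2.90 to 3.82%), 17.5% of the entospletinib pool (1329 cells, interval 16.6 to 18.3%) and 18.4% of the control pool. The log2 ratio was 2.39 ± 0.33, a 5.23-fold higher share with entospletinib, and the sublibraries did not overlap (2.33 to 4.24% against 15.9 to 19.4%). Of the vehicle endothelial cells 26.0% were called doublets and of the entospletinib ones 6.62%, and without called doublets the log2 ratio was 2.67. Tubule cells of the loop of Henle were 0.720% with vehicle, 3.73% with entospletinib and 2.26% in the control, and distal tubule or collecting duct cells 0.278%, 1.58% and 0.669%. Proximal tubule cells were 2.41% with vehicle, 4.19% with entospletinib and 9.08% in the control, so that here the entospletinib pool lay closer to the vehicle pool than to the control. The limit on mitochondrial counts was the only limit failed by 1602 entospletinib and 518 vehicle barcodes.

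Among lymphocytes, B cells were 6.50% with entospletinib, 2.60% with vehicle and 3.46% in the control, a log2 ratio of 1.32 ± 0.36, and thus above the control as well. T cells were 3.45%, 2.57% and 5.35%, higher with entospletinib in 6 of 8 sublibraries, a log2 ratio of 0.42 ± 0.67 that was 0.035 when cells with at least 1.5% ribosomal protein counts were left out. Natural killer cells were 76 of 7605 cells with entospletinib and 67 of 6110 with vehicle, a log2 ratio of -0.13 with that direction in 5 of 8 sublibraries. It turned to 0.19 with leukocyte classes as denominator and was -0.97 with classes taken from clusters. Group 2 innate lymphoid cells, which hold the tissue repair factor amphiregulin, were 0.434% with entospletinib (33 cells), 0.147% with vehicle (9 cells) and 0.562% in the control. Of the dendritic cells, cDC2, which present antigen to helper T cells, were 5.30%, 3.40% and 4.03%, and type 1 conventional dendritic cells (cDC1), which cross-present antigen, 3.58%, 2.65% and 3.05%. The cDC1 log2 ratio of 0.43 ± 0.31 became -0.18 when cells with at least 1.5% ribosomal protein counts were left out. Plasmacytoid dendritic cells, a source of type I interferon, were 1.33% with entospletinib, 0.573% with vehicle and 1.19% in the control. Macrophages were 35.1%, 32.8% and 34.8%, a log2 ratio of 0.10 ± 0.08, which became -0.093 among cells with more than 500 genes.

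Over all cells together, 3460 genes were compared. Of these 182 were higher with entospletinib past the fold, 5.26% of the genes compared, and 212 were lower, 6.13%, together 11.4%. *Ehd3*, a membrane trafficking gene of glomerular endothelium, was at 11.8 CPM with vehicle, 100.1 CPM with entospletinib and 62.7 CPM in the control, a log2 ratio of 2.79 ± 0.51. *Igfbp5*, an insulin-like growth factor binding protein, was at 93.8 CPM, 766 CPM and 659 CPM, a log2 ratio of 2.73 ± 0.44. *Dkk2*, *Egf* and *Cyyr1* were next at 2.58, 2.56 and 2.54. *Podxl*, which codes for podocalyxin, and *Plpp3*, a lipid phosphatase of endothelium, were at 2.49 and 2.45. *Egf*, the growth factor made by the loop of Henle and distal tubule, was at 45.9 CPM with vehicle, 333 CPM with entospletinib and 257 CPM in the control, with a wide spread over the vehicle sublibraries of 8.42 to 78.9 CPM.

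Among the lower genes, *Slc7a11*, the cystine transporter, was at 556 CPM with vehicle, 31.4 CPM with entospletinib and 17.6 CPM in the control, a log2 ratio of -4.45 ± 0.30. *Il1a*, the alarmin interleukin 1 alpha, was at 112 CPM, 6.80 CPM and 2.97 CPM, and its antagonist *Il1rn* at 169 CPM, 13.2 CPM and 5.29 CPM. *Cxcl2*, the ligand of the neutrophil receptor CXCR2 (chromosome 5, 90903871 to 90905938, plus strand), was at 711 CPM with vehicle, 59.1 CPM with entospletinib and 27.2 CPM in the control, a log2 ratio of -3.89 ± 0.29. *Acod1*, which makes itaconate, lay at -3.88, *Clec4d*, a C-type lectin receptor, at -3.79, *F10*, coagulation factor X, at -4.06, and *Thbs1*, thrombospondin 1, at 879 CPM, 79.4 CPM and 50.0 CPM, at -3.77 ± 0.33. For each of these genes the highest sublibrary with entospletinib lay below the lowest with vehicle, and the control was lower still.

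The ratios moved when the class mix was held fixed, those of the higher genes more than those of the lower ones. When the levels of every class, cells without a single class included, were weighted by its share of the counts (not the cells) of the vehicle pool, 36 of the 182 higher genes and 102 of the 212 lower genes stayed at 2-fold. The median log2 ratio of the higher genes went from 1.73 to 0.64, and that of the lower genes from -1.55 to -0.98. *Podxl* went to 0.76 and *Plpp3* to 0.86, whereas *Ehd3* at 1.06, *Igfbp5* at 1.13, *Egf* at 1.23 and *Tmem117*, a membrane protein gene, at 2.11 stayed at 2-fold. *Il1a* stayed at -3.41, *Thbs1* at -2.95 and *Cxcl2* at -2.77, whereas *Acod1*, with 78.6% of its vehicle counts in neutrophils, went to -1.82. The neutrophil markers *Csf3r* and *Il1r2*, which the gate itself uses, went from -1.97 and -1.82 to 0.014 and 0.15.

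**Figure D2:**
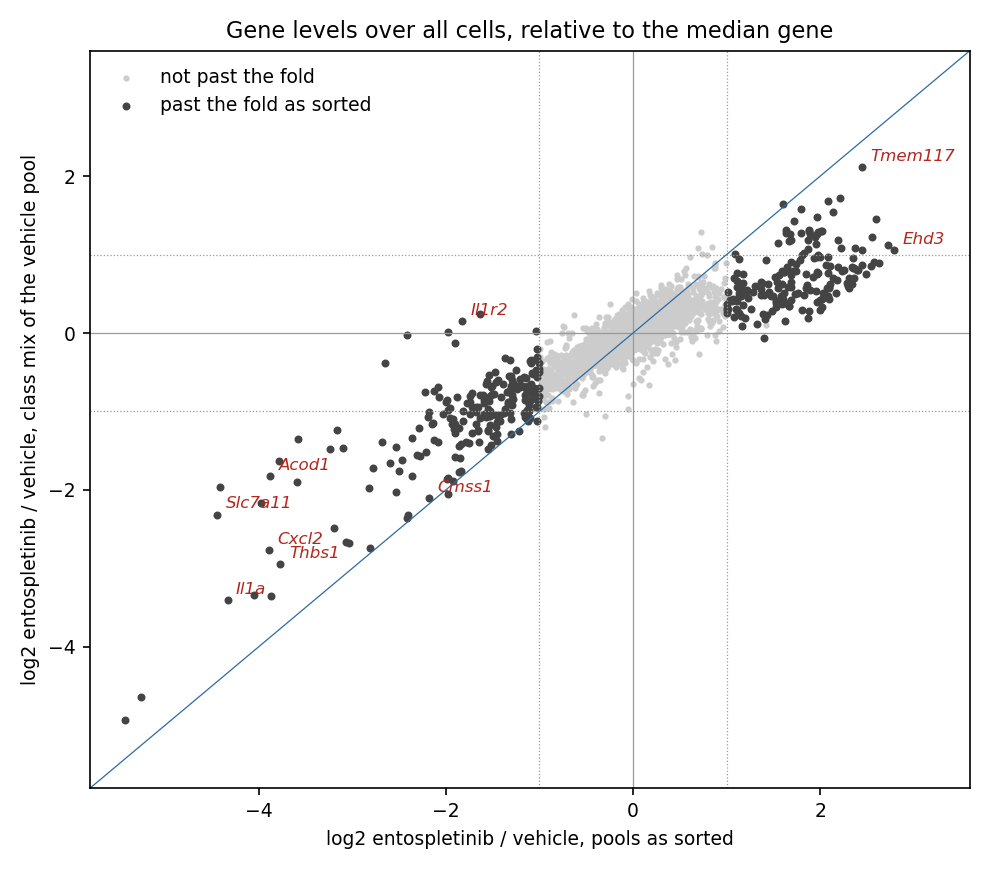
Log2 ratio of entospletinib over vehicle for the 3460 genes compared over all cells, relative to the median gene, as sorted (x axis) and with every class weighted as in the vehicle pool (y axis); dark points are past the fold as sorted, dotted lines mark 2-fold and the blue line marks equal values. Most higher genes drop below the upper dotted line, while *Il1a* and *Thbs1* stay far below the lower one.

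Against the 6.13% of all genes compared that were lower and the 5.26% that were higher, inflammatory cytokines and NF-kappaB targets had 15 of 19 members compared over all cells, of which 12 were lower past the fold and none was higher, with a median of -1.68. Fc and C-type lectin receptors had 5 of 8 compared members lower, among them *Clec4e*, *Clec7a* and *Trem1*, and a median of -1.97. Hypoxia and glycolysis genes had 5 of 10 lower (*Slc2a1*, *Hk2*, *Vegfa*, *Eno1*, *Pkm*) and a median of -1.04. Endothelial quiescence and capillary identity genes had 6 of 8 higher and a median of 2.38, and tubule transport and metabolism genes 5 of 10 higher (*Slc4a4*, *Egf*, *Umod*, *Lrp2*, *Ghr*) and a median of 0.99. Of the called members *Kdr*, *Flt1*, *Tek*, *Plvap*, *Umod* and *Lrp2* are gate markers of classes with a higher share. At the class mix of the vehicle pool *Kdr* was at 0.90, *Flt1* at 0.80, *Ghr* at 0.74, *Slc4a4* at 0.48 and *Umod* at 0.11. *Ehd3*, *Igfbp5* and *Egf* stayed at 2-fold there. The median over all genes compared is 0 by construction.

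Within classes the pattern was uneven. Genes past the fold were many in neutrophils and classical monocytes and few in dendritic cells, lymphocytes, endothelium and proximal tubule. A small set of genes was lower in nearly every class. Of the genes compared, 11 were lower past the fold in at least 7 of the 9 classes, and 5 of them in all 9: *Lars2*, a mitochondrial leucyl-tRNA synthetase, *Gphn*, the synapse scaffold gephyrin, *Cmss1*, *Ccnb1ip1* and the long noncoding RNA *Gm19951*. The others were *Camk1d*, *Cdk8*, *Filip1l*, *Il31ra*, the RNase P RNA *Rpph1* and the small Cajal body RNA *Scarna2*. *Cmss1* alone was at 30518 CPM with vehicle, 8261 CPM with entospletinib and 16037 CPM in the control over all cells, a log2 ratio of -2.19 ± 0.05. The set took 12.2% of all counts with vehicle, 4.32% with entospletinib and 5.61% in the control. Within classes it took between 6.66 and 14.3% of counts with vehicle and between 2.11 and 6.07% with entospletinib. *Cmss1* and *Filip1l* overlap on opposite strands of chromosome 16 and *Ccnb1ip1* and *Rpph1* overlap on chromosome 14, so their counts cannot be told apart with certainty. Levels within the set ranged from *Cdk8* at 34313 CPM with vehicle to *Rpph1* at 172 CPM, and whether these genes follow the cells or the preparation of a pool cannot be told apart with 1 pool per condition. No gene was higher past the fold in 4 or more classes.

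**Figure D3:**
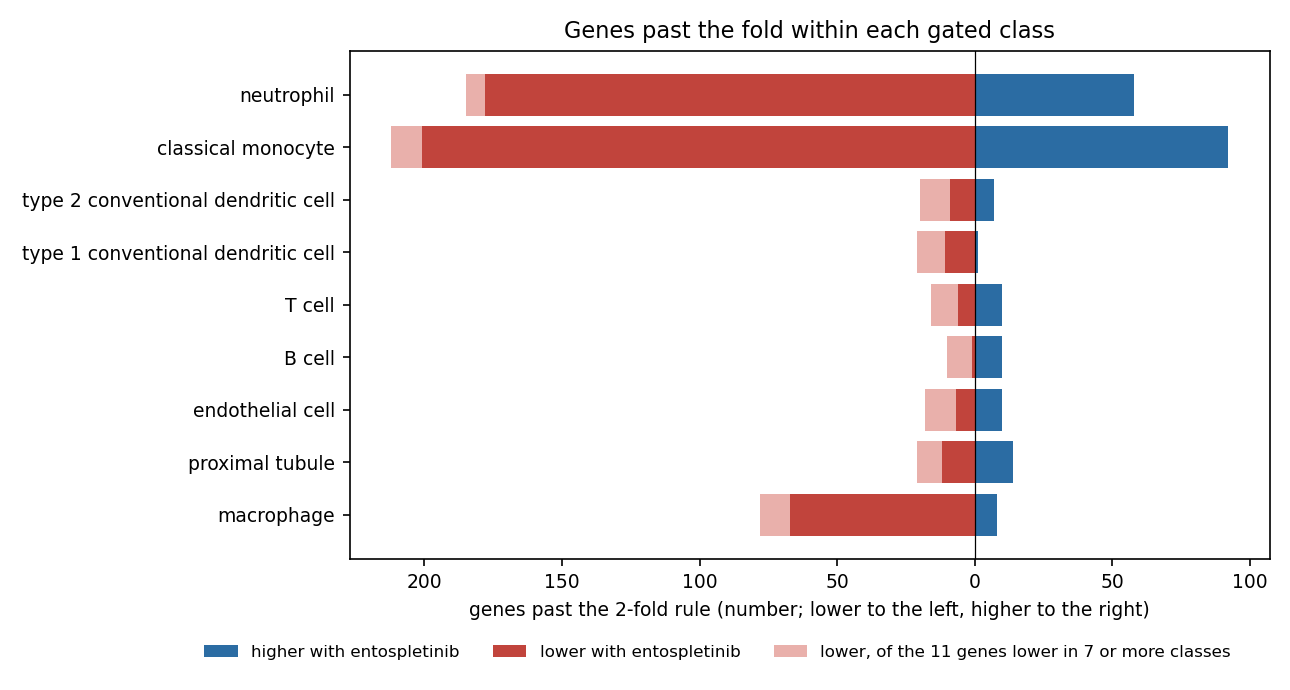
Number of genes past the 2-fold rule within each of the 9 compared classes, lower with entospletinib to the left and higher to the right; the pale part of the left bars is the set of 11 genes lower in at least 7 classes. Classical monocytes (212 lower, 92 higher) and neutrophils (185 lower, 58 higher) hold most calls, and in B cells 9 of the 10 lower genes belong to the shared set.

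In neutrophils 2942 genes were compared, of which 185 were lower with entospletinib (6.29%) and 58 higher (1.97%), 8.26% in all. Under TMM scaling, which anchors the ratio differently, 352 were lower and 27 higher. The entospletinib side rests on 139 cells with 279854 counts, against 1607 cells with 2340072 counts, and its sublibraries spread widely. The neutrophils of the entospletinib pool had lower levels of several inflammatory genes. *Cxcl2* was at 3741 CPM with vehicle (sublibraries 3361 to 4019), 611 CPM with entospletinib (110.1 to 1081) and 348 CPM in the control, a log2 ratio of -2.73 ± 0.99. *Cxcl3*, a further CXCR2 ligand, had 550 counts with vehicle (235 CPM) and 1 count with entospletinib (3.57 CPM, interval 0.0905 to 19.9). *Il1a* was at 571 CPM and 46.5 CPM, *Il1rn* at 957 and 322 CPM, *Nlrp3*, the inflammasome sensor, at 1920 and 650 CPM, and *Acod1* at 2107 and 790 CPM. *Il1b* was the highest of the list at 10536 CPM with vehicle, 7272 CPM with entospletinib and 6352 CPM in the control, and its log2 ratio of -0.65 ± 0.27 was not past the fold. Of the 17 list members compared, 7 were lower past the fold, none was higher and 16 lay below the median gene, with a list median of -1.34 that was -0.72 with classes taken from clusters. The neutrophil cluster held 97.6% of the vehicle and 79.9% of the entospletinib neutrophils.

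Hypoxia and glycolysis genes had 4 of 11 compared members lower in neutrophils, against 6.29% of all genes compared there. *Hk2*, hexokinase 2, was at 220.1 CPM with vehicle and 50.0 CPM with entospletinib, *Vegfa* at 329 and 139 CPM, and *Pkm*, pyruvate kinase, at 405 and 197 CPM. *Hilpda*, a hypoxia-induced lipid droplet protein gene outside the list, had 373 counts with vehicle and 1 with entospletinib. Of the receptors upstream of SYK, *Clec4e* (Mincle) was at 1548 CPM with vehicle and 768 CPM with entospletinib and *Clec5a* at 246 and 118 CPM, both past the fold but at -0.51 and -0.64 with classes taken from clusters, while none of the 13 compared SYK signalling genes was past the fold. *Il23a*, a subunit of interleukin 23, had 547 counts with vehicle and 3 with entospletinib (10.7 CPM, interval 2.21 to 31.3). *Garin1a* had 265 counts with vehicle and none with entospletinib, at least 10.6-fold lower in CPM against a floor of 3 counts per pool. *Icam1*, an adhesion molecule, *Csf2rb*, the shared receptor chain for GM-CSF and interleukin 3, and *Cdkn1a*, a cell cycle inhibitor, were lower at -2.04, -1.41 and -2.68. With classes taken from clusters *Csf2rb* was at -0.87 and *Vegfa* at -0.77. Of the 9 trafficking genes compared, 1 was lower past the fold, *Icam1*, and none was higher. *Cxcr2* (651 and 518 CPM) and *Cd44* (2849 and 2569 CPM) were among those not past the fold.

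The genes most higher in the neutrophil gate were not neutrophil genes. *Atp1b1*, the sodium pump beta subunit of tubules, was at 30.8 CPM with vehicle and 725 CPM with entospletinib, *Pkhd1*, the fibrocystin gene of collecting ducts, at 27.8 and 572 CPM, and *Igfbp7*, an endothelial gene, at 11.5 and 172 CPM. The 10 markers of distal tubule or collecting duct summed to 29.9 CPM with vehicle, 379 CPM with entospletinib and 409.5 CPM in the control in these cells, none at 0, the 5 loop of Henle markers to 29.9, 89.3 and 124 CPM, and the 9 endothelial markers to 79.5, 136 and 155 CPM. Called doublets were 16.5% with entospletinib and 10.3% with vehicle. When classes were taken from clusters the log2 ratio of *Atp1b1* was 1.81 in place of 4.42 and that of *Igfbp7* 0.98 in place of 3.73. Of genes that myeloid cells make, *H2-Aa*, a chain of major histocompatibility complex (MHC) class II, was higher at 57.7 and 289 CPM, a log2 ratio of 2.20 that was 0.36 with classes taken from clusters and 2.88 without called doublets. Of the gated neutrophils of the entospletinib pool 8.63% lay in a cluster of cDC2-like cells. *Atf3*, a stress-induced repressor, was higher at 168 and 547 CPM, and at 1.19 with clusters. The part of carried-over RNA in these values was not tested. Conversely, the neutrophil genes *S100a8*, *S100a9* and *Retnlg* together stood between 15.2 and 40.7 CPM in every other class of both pools, against 2369 and 2198 CPM in neutrophils.

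In classical monocytes 3050 genes were compared, and 212 were lower with entospletinib (6.95%) and 92 higher (3.02%), 9.97% in all, or 248 and 62 under TMM scaling. The lower genes included matrix, growth factor and chemokine genes. *Thbs1* was at 4281 CPM with vehicle, 575 CPM with entospletinib and 769 CPM in the control, a log2 ratio of -3.27 ± 0.63, and *Fn1*, fibronectin, at 4090, 1328 and 742 CPM, -1.99 ± 0.54. *Vegfa* was at 551, 62.1 and 55.0 CPM. Of the chemokines, *Ccl2*, the ligand of CCR2, was at 225 CPM with vehicle and 14.1 CPM with entospletinib, *Ccl7*, another CCR2 ligand, had 158 counts and 1 count, and *Cxcl3* had 187 counts and none, at least 32.5-fold lower in CPM. *Nt5e*, the CD73 ectonucleotidase, had 236 counts and 1 count, and *Inhba*, the activin A subunit, 257 counts and 3 counts. For each of these genes the entospletinib value lay closer to the control value than to the vehicle value.

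By list, 8 of 12 inflammatory genes were lower in monocytes (*Il1a*, *Il1rn*, *Osm*, *Cxcl2*, *Cxcl3*, *Ptgs2*, *Nlrp3*, *Hif1a*; median -1.74), 6 of 10 hypoxia and glycolysis genes (median -1.46), 4 of 8 Fc and C-type lectin receptors (*Fcgr2b*, *Clec4d*, *Clec4n*, *Trem1*; median -1.62) and 3 of 4 matrix genes (*Fn1*, *Spp1*, *Thbs1*; median -1.77). None of these lists had a member higher past the fold. Of all genes compared in monocytes 6.95% were lower and 3.02% higher. The higher genes included *Gpr141*, an orphan receptor, at 122 CPM with vehicle, 689 CPM with entospletinib and 618 CPM in the control, *Ms4a4c*, a monocyte membrane gene, at 41.3, 216 and 249 CPM, and *Cx3cr1*, the fractalkine receptor, at 157, 452 and 318 CPM. *Itgal*, the alpha chain of the integrin LFA-1, was at 84.0, 271 and 359 CPM. *Cd74*, the invariant chain of MHC class II, was at 448, 1162 and 1815 CPM, at 2-fold in 8 of 19 alternatives, and *Tsc22d3*, the glucocorticoid-induced leucine zipper, at 32.4, 119 and 92.3 CPM.

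The monocytes of the pools fell into different clusters. Of the 327 vehicle monocytes 60.6% lay in a cluster that held 671 vehicle cells, 44 entospletinib cells and 3 control cells in all, and 31.5% in another cluster, which held 85.1% of the 222 entospletinib monocytes and 73.4% of those of the control. The first of these clusters is almost only vehicle cells and may be that pool rather than a cell type. Within the second cluster alone, a comparison added after seeing the data on 103 vehicle and 189 entospletinib monocytes, 23 genes were lower and 7 higher of 2970 compared, and 16 of the 23 were also lower in the whole class. There the list medians were -0.19 for inflammatory genes, -0.13 for hypoxia and glycolysis, -0.54 for Fc and C-type lectin receptors and -0.39 for matrix genes. *Nt5e* stayed at a log2 ratio of -2.09 and *Thbs1* at -1.65, whereas *Cxcl2* was at -0.89, *Ccl2* at -0.85, *Vegfa* at -0.80, *Inhba* at -0.42, *Il1a* at -0.30 and *Fn1* at -0.20. Of the higher genes *Gpr141* was at 0.85, *Ms4a4c* at 0.62, *Cd74* at 0.16, *Itgal* at 0.12 and *Cx3cr1* at 0.075, and *Spp1* and *H2-Eb1* changed sign to 1.00 and -0.21. A cell was gated as a monocyte on no more than 2 markers in 41.6% of vehicle and 22.1% of entospletinib cases.

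**Figure D4:**
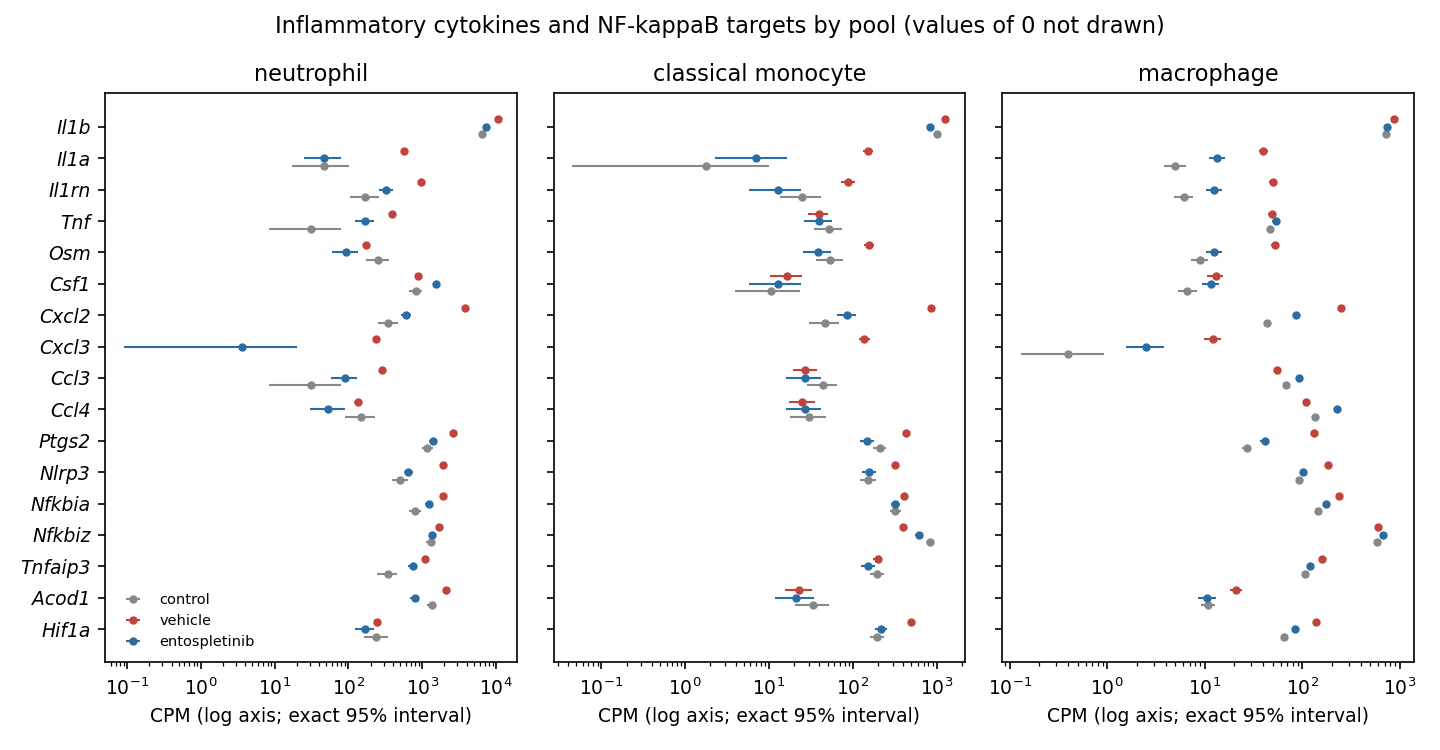
Levels of inflammatory cytokine and NF-kappaB target genes in neutrophils, classical monocytes and macrophages of the control, vehicle and entospletinib pools (CPM, log axis, points with exact 95% Poisson intervals, values of 0 not drawn). *Cxcl2* lies lower with entospletinib than with vehicle in all 3 classes, and *Il1a* and *Il1rn* in neutrophils and monocytes (in macrophages both were under the level for a comparison). *Il1b* was past the fold in none of them.

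In macrophages, the largest class, 78 of 3198 genes were lower (2.44%) and 8 higher (0.25%), 2.69% in all, and 4 of the 11 inflammatory genes compared were lower (*Cxcl2*, *Ptgs2*, *Nlrp3*, *Hif1a*; median -0.76). *Cxcl2* was at 253 CPM with vehicle, 87.0 CPM with entospletinib and 44.0 CPM in the control, *Fn1* at 818, 134 and 9.06 CPM, and *Thbs1* at 531, 67.7 and 29.0 CPM. The higher ones included *Hpgd*, which degrades prostaglandin E2, at 137, 379 and 305 CPM, *Mmp13*, a collagenase, at 46.6, 150.3 and 227 CPM, and *Ptchd1* at 43.7, 142 and 201.4 CPM. Of the vehicle macrophages 13.9% lay in the cluster made up almost only of vehicle cells, which held 44 entospletinib cells of any class. With classes taken from clusters 28 genes were lower and 3 higher, *Thbs1* was at -1.48 and *Fn1* at -1.89, and *Cxcl2* at -0.87, *Hif1a* at -0.38 and *Hpgd* at 0.93 were under 2-fold.

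In cDC2, 3042 genes were compared, 20 were lower (0.657%) and 7 higher (0.23%), 0.888% in all, and 11 of the 20 belong to the set lower in most classes. *Hpgd* was at 31.4 CPM with vehicle (sublibraries 5.98 to 82.4), 169 CPM with entospletinib (84.3 to 301) and 264 CPM in the control, a log2 ratio of 2.14 ± 0.94. *Tgfbr1*, a receptor of transforming growth factor beta, was at 124, 397 and 347 CPM and *Ccl4*, an inflammatory chemokine, at 69.4, 183 and 128 CPM. *Malt1*, the paracaspase that acts below SYK and CARD9, was at 1053 CPM with vehicle, 625 CPM with entospletinib and 348 CPM in the control, -1.03 ± 0.46, and stayed at 2-fold in 11 of 18 alternatives. With classes taken from clusters *Malt1* was at -0.81 and *Tgfbr1* at 0.87. None of the 8 inflammatory genes compared was lower past the fold, and their median was 0.00. With TMM scaling 17 genes were lower and 13 higher.

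In cDC1, 21 of 3168 genes were lower (0.663%) and 1 was higher (0.0316%), 0.694% in all, the higher one being *Nrbp1*, at 25.0 CPM with vehicle and 75.8 CPM with entospletinib. Outside the common set, *Fn1* was at 246 CPM with vehicle, 18.9 CPM with entospletinib and 7.89 CPM in the control, with vehicle sublibraries from 8.09 to 1313 CPM, and its log2 ratio went from -4.00 ± 2.65 to -0.74 with classes taken from clusters. *Dusp1*, a phosphatase of stress kinases, was at 75.0, 43.6 and 80.6 CPM, and stayed at 2-fold in 13 of 18 alternatives. The 7 inflammatory genes compared all lay below the median gene, with a median of -1.13, -0.67 with classes taken from clusters, and none past the fold, and *Il1b* was at 467 CPM with vehicle and 254 CPM with entospletinib, lower in 7 of 8 sublibraries.

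In T cells 16 of 3202 genes were lower (0.5%) and 10 higher (0.312%), 0.812% in all, and 10 of the lower ones were of the common set. The subset and checkpoint genes held no call among 13 compared. *Ctla4*, the checkpoint receptor of regulatory and activated T cells, was at 236 CPM with vehicle (interval 193 to 287), 89.4 CPM with entospletinib (67.5 to 116) and 101 CPM in the control, a log2 ratio of -1.66 ± 1.26 with that direction in 7 of 8 sublibraries, so it did not meet the rule. *Foxp3*, which defines regulatory T cells, stood at 13.9 and 14.4 CPM, under the level for a comparison. *Lef1* and *Tcf7*, transcription factors of naive T cells, were at 547 and 789 CPM and at 241 and 359 CPM, neither past the fold. The rule named *St8sia6*, a sialyltransferase, at 23.2 and 102 CPM, and *Wdr89* at 64.9 and 228 CPM, which were at 0.96 and 0.90 with classes taken from clusters.

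In B cells, the lymphocytes in which SYK carries the antigen receptor signal, 10 of 3213 genes were lower (0.311%) and 10 higher (0.311%), 0.622% in all. The 1 lower gene outside the common set was *Thbs1*, at 103 CPM with vehicle (33 counts) and 25.0 CPM with entospletinib (27 counts), against 4281 CPM in vehicle monocytes. None of the 9 compared genes of the B cell receptor and germinal centre list was past the fold. *Cd79a*, a signalling chain of the receptor, was at 144 CPM with vehicle, 148 CPM with entospletinib and 155 CPM in the control, and *Ighm*, the heavy chain of immunoglobulin M, at 619, 1013 and 955 CPM. *Btk* was at 219 and 257 CPM and *Plcg2* at 507 and 500.5 CPM, the 2 enzymes that SYK signalling reaches next. The genes with the largest ratios, *Septin2*, *Gtf2i* and *Rbl2*, rested on 8, 7 and 10 vehicle counts, and with classes taken from clusters *Septin2* was at 0.79 and *Gtf2i* at 0.50.

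In endothelial cells 18 of 3455 genes were lower (0.521%) and 10 higher (0.289%), 0.81% in all, or 15 and 17 under TMM scaling. All 11 genes of the common set were among the lower ones. Of these cells, 7.90% of the entospletinib pool lay in a cluster named stroma or pericyte-like, and 14.8% of the entospletinib and 10.3% of the vehicle cells in a further endothelial-like cluster. *Zbtb16* was at 24.6 CPM with vehicle (14 counts, interval 13.5 to 41.3), 177 CPM with entospletinib and 446 CPM in the control, a log2 ratio of 2.68 ± 1.85. *Sox17*, a transcription factor of arterial endothelium, was at 28.1, 91.7 and 44.9 CPM, 1.54 ± 0.80, and *Hes1*, a target of Notch, at 21.1, 79.9 and 44.1 CPM. *Sema5a*, a semaphorin, was at 75.6, 241 and 33.6 CPM. For *Sox17*, *Hes1* and *Sema5a* the entospletinib level was above the control and the vehicle level nearer to it in CPM. With classes taken from clusters *Sox17* was at 0.97. Of the 12 compared genes of quiescence and capillary identity, *Sox17* was past the fold and the list median was 0.43. *Kdr*, the receptor of VEGF, was at 1043 CPM with vehicle and 1656 CPM with entospletinib, *Flt1* at 2548 and 3592 CPM and *Nos3*, the endothelial nitric oxide synthase, at 107 and 107 CPM. None of the 4 compared activation genes was past the fold. *Vcam1* was at 72.1 and 28.9 CPM and *Icam1* at 75.6 and 53.9 CPM, in the same direction in 6 and 5 of 8 sublibraries. The lower genes outside the common set included *Sirpa* and *Abca1*, which macrophages also express, at log2 ratios of -1.30 and -1.45. The 8 macrophage markers summed to 109 CPM in vehicle and 112 CPM in entospletinib endothelial cells, and the 6 classical monocyte markers to 137 and 81.1 CPM, none of either list at 0, and their part was not tested. The 9 neutrophil markers, 1 of them at 0, summed to 155 CPM in vehicle, less in entospletinib and to 80.4 CPM in control endothelial cells.

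In the proximal tubule, which reabsorbs most of the filtrate, 21 of 3100 genes were lower (0.677%) and 14 higher (0.452%), 1.13% in all, or 19 and 21 under TMM scaling, on 147 vehicle and 319 entospletinib cells. Transport and metabolism genes held no call among 15 compared, with a median of -0.06. The phosphate carrier *Slc34a1* was at 2069 CPM with vehicle, 2656 CPM with entospletinib and 2145 CPM in the control, and the endocytic receptor *Lrp2* at 1724, 2393 and 2675 CPM. The 5 injury genes that could be compared held no call either, *Spp1*, osteopontin, standing at 362, 455 and 227 CPM and *Cp*, ceruloplasmin, at 13.3, 208 and 13.8 CPM in 7 of 8 sublibraries. *Havcr1*, the injury marker KIM-1, was at 11.1 CPM with vehicle and 3.58 CPM with entospletinib, too low to compare. Higher past the fold were *Cyp2j13*, a cytochrome P450 gene, at 95.5, 413 and 309 CPM, *Nt5e* at 22.2, 104 and 55.7 CPM and *Jun*, an immediate early gene, at 104, 353 and 130.1 CPM. *Sparc*, a matrix-binding protein, had 2 counts with vehicle (4.44 CPM, interval 0.538 to 16.1) and 124 with entospletinib (111 CPM, interval 92.3 to 132), and *Ncam1* 10 and 121 counts. Markers of other kidney lineages were higher in the entospletinib proximal tubule cells, the 4 podocyte markers at 13.3 CPM with vehicle and 104 CPM with entospletinib in sum, the 9 of stroma or pericytes at 4.44 and 41.2 CPM, the 5 of the loop of Henle at 22.2 and 95.7 CPM and the 10 of distal tubule or collecting duct at 57.8 and 173 CPM, and their part was not tested. Called doublets were 29.3% with vehicle and 22.6% with entospletinib. Without called doublets *Ncam1* went from 1.92 to 0.74, and with classes taken from clusters *Sparc* went from 4.13 to 1.44, *Nt5e* from 1.86 to 0.64 and *Jun* from 1.42 to 0.17. The largest cluster of these cells held 72.8% of the vehicle and 48.0% of the entospletinib cells, and a further cluster held 10.7% of the entospletinib cells. *Cat*, catalase, and *Sdha*, a subunit of succinate dehydrogenase, were lower at -1.04 and -1.05.

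Glucocorticoid-responsive genes were mixed. The list median was 1.37 in the proximal tubule, over 3 genes, and 0.77 in endothelial cells, but -0.70 in macrophages, where 4 of 6 lay below the median gene and the median turned to 0.78 at a limit of 100 CPM, and -0.53 in cDC1, where *Dusp1* was lower past the fold. *Fkbp5*, the cochaperone that steroid hormones induce (chromosome 17, 28399094 to 28517527, minus strand), lay above the median gene in 9 of 9 classes and was past the fold in macrophages and the proximal tubule. In macrophages it was at 59.5 CPM with vehicle (sublibraries 47.7 to 77.3), 180.4 CPM with entospletinib (162 to 207) and 392 CPM in the control, a log2 ratio of 1.25 ± 0.31. In the proximal tubule it was at 66.7, 217 and 119 CPM, 1.37 ± 0.79, in endothelial cells at 93.2, 178 and 301 CPM, and in T cells at 102, 217 and 189 CPM. *Zbtb16*, a transcription factor gene that glucocorticoids induce (chromosome 9, 48654297 to 48836222, minus strand), was compared in 7 classes, lay above the median gene in 6 and was past the fold in neutrophils (12.4, 104 and 147 CPM), endothelial cells and the proximal tubule (8.89, 101 and 49.2 CPM). In T cells, where it is a lineage gene of innate-like cells, it was at 248 and 241 CPM. In 6 of the 9 classes the control level of *Fkbp5* was above the entospletinib level, and in neutrophils, T cells and the proximal tubule it was below it. *Cdkn1a* was lower past the fold in neutrophils and monocytes, and at -0.49 in the monocytes of the second cluster alone.

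**Figure D5:**
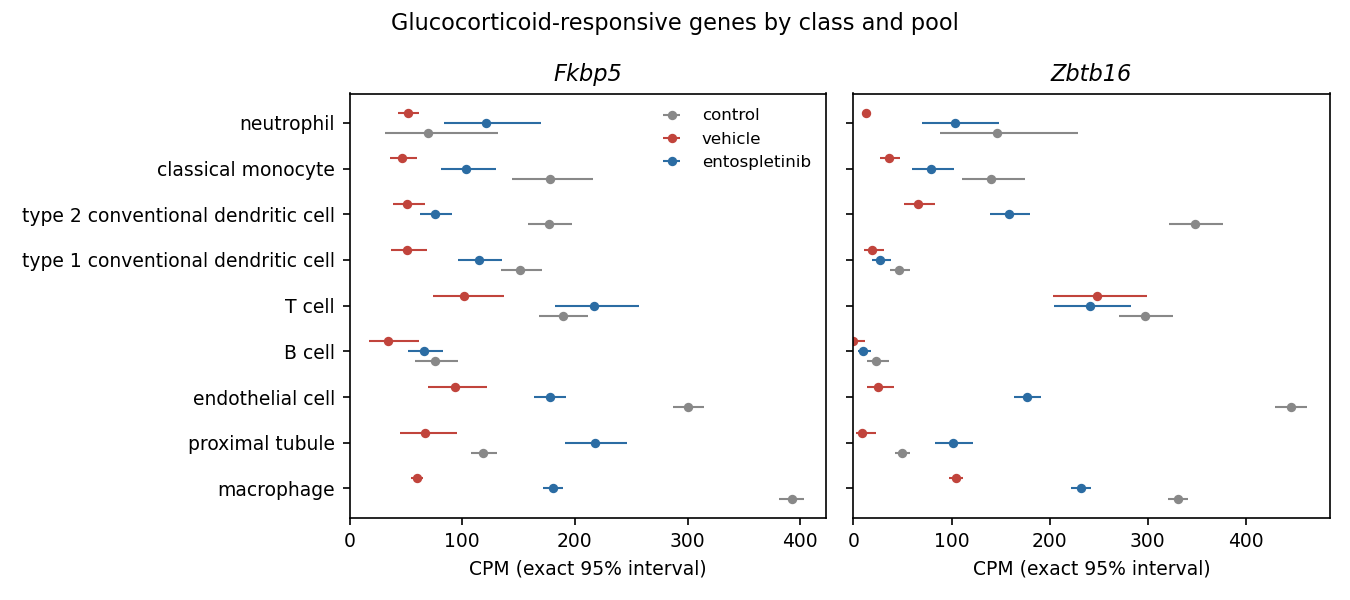
Levels of *Fkbp5* and *Zbtb16* in the 9 compared classes of the control, vehicle and entospletinib pools (CPM, points with exact 95% Poisson intervals, 1 pool per condition). *Fkbp5* lies higher with entospletinib than with vehicle in every class, and *Zbtb16* in endothelial cells stands at 24.6, 177 and 446 CPM with vehicle, with entospletinib and in the control.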

How the data were processed

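Mouse kidney cells were fixed and barcoded by combinatorial indexing (Parse Evercode), and the authors deposited unnormalized transcript counts per gene and cell, made with the Parse pipeline (version 1.1) against mm10, in 8 deposited samples (sublibraries), each of which holds cells of all 7 conditions. The condition of each cell was taken from the deposited cell table. The annotation release was not given in the sources used here. The deposited counts cover 57010 genes, of which 52081 were placed by identifier in GENCODE M21 (GRCm38, the same assembly as mm10). No column of per-sample values was left unmapped.

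Counts were summed by class and pool, and a gene entered a comparison at a mean of at least 50 CPM over both pools. Ratios took 0.5 prior counts and were centred on the median gene, a shift of 0.30 on the log2 scale over all cells. Cells were gated by 21 marker lists. Clusters, used as an alternative, came from the Leiden algorithm (3000 variable genes, 40 components, 15 neighbours, resolution 1). By rule, a cluster led by nonclassical monocyte markers was named classical monocyte. Doublets were called from simulated doublets (2 per cell, 10 neighbours, score of at least 0.6) and kept in the main values. Named genes were, by rule, the 10 per direction with the largest ratios past the fold over all cells and up to 6 per direction in each class (with at least 30 counts in the higher pool), then 2 to 4 members of each of 18 gene lists, and *Syk*. Gate markers, mitochondrial and ribosomal protein genes, genes named Gm with a number or ending in Rik and genes under 20% of their level in another class of that pool were left out. Other genes, among them *Cmss1* and the set lower in at least 7 classes, *Thbs1* in B cells, *Sirpa*, *Abca1*, *Cat*, *Sdha* and further list members, were named after their values were seen. Identifiers with no gene name were kept by the rule and counted but are not described. A few genes are not reported here. The cells and lists were chosen with earlier results of these data known. The scripts were tested on simulated data. Python 3.11.15, numpy 2.4.6, scipy 1.17.1, pandas 2.3.3, scanpy 1.11.5, igraph 0.11.9, scikit-learn 1.9.0 and matplotlib 3.10.9 were used. The alternatives were other limits on cells, genes and gates, other scaling, clusters in place of gates, thinning to 1000 counts per cell, and leaving out each sublibrary.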

Additional observations from a re-analysis of the deposited data

Results flagged for a closer look

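A pair of genes was past the fold in opposite directions in different classes. *Nt5e*, the CD73 ectonucleotidase, was higher with entospletinib in the proximal tubule at a log2 ratio of 1.86 and lower in neutrophils at -2.99 and in classical monocytes at -6.89. *Marchf3*, a ubiquitin ligase gene, was higher in the proximal tubule at 1.49 and lower in neutrophils at -1.62. With classes taken from clusters the proximal tubule ratios were 0.64 for *Nt5e* and 0.73 for *Marchf3*, under 2-fold. The difference between classes was not tested, since each pool is 1 sample. Among 58 groups of 8 sublibraries checked for a value standing apart by Dixon's criterion, there was none.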

How the results depend on the processing

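No pairing of mice was possible because each condition is 1 pool. The numbers in the sample titles are those of the sublibraries, and ratios within a sublibrary measure technical error alone. Of 215 named gene results past the fold, 211 kept their direction under every alternative tried and 118 stayed at 2-fold. Being past the fold already required the same direction in every sublibrary, so leaving a sublibrary out could hardly reverse a gene. Other CPM limits and TMM scaling only moved the centre of the ratios. The count of 211 is therefore in part fixed by the selection and is no independent check. The neutrophil share log2 ratio ranged from -4.17 to -3.30, the latter with cells thinned to 1000 counts. The classical monocyte share was -0.46 with a stricter gate and -1.32 with clusters. The clusters did not keep nonclassical monocytes apart from classical ones, and 1 of them held 279 vehicle cells gated as macrophages. The monocyte gene counts with clusters given below rest on the same cells. With leukocyte classes as denominator the shares were 0.96 (cDC2), 0.76 (cDC1), 0.42 (macrophages) and 0.19 (natural killer cells, which were 0.10 when thinned). With a ribosomal limit cDC1 were -0.18 and macrophages 0.17; macrophages were -0.093 above 500 genes and 0.19 with clusters. Genes higher over all cells were 424 at 20 CPM, 77 at 100 CPM and 36 at the vehicle class mix, and lower ones 341, 119 and 102. In neutrophils TMM scaling gave 27 higher and 352 lower, and leaving out 1 sublibrary gave 60 to 104 higher. In monocytes 143 were higher with clusters, 133 lower at 100 CPM, and 7 higher and 23 lower in 1 cluster alone. In macrophages 3 were higher and 28 lower with clusters, 14 and 149 at 20 CPM, and 5 and 44 at 100 CPM. In the 6 other classes together 86 were higher without doublets, 158 at 20 CPM, 21 at 100 CPM and 68 to 98 without 1 sublibrary, and 177 were lower at 20 CPM. Within that 1 monocyte cluster *Spp1* was 1.00, *H2-Eb1* -0.21 and the MHC class II median -0.21. At the vehicle class mix *Il1r2* was 0.15 and *Csf3r* 0.014. Of 97 list medians 41 changed sign in at least 1 alternative. Among them were glucocorticoid genes at 100 CPM (0.78 in macrophages, -0.17 over all cells, -0.59 in monocytes), and the 4 with medians of at least 1 in size were MHC class II in monocytes, tubule injury over all cells (0.20 at 20 CPM), matrix in cDC1 (0.092, stricter gate) and immediate early genes in the proximal tubule (-0.13, clusters). Fewer genes or cells enter under the stricter limits, and the cause of the other shifts was not tested. The smallest classes rest on 139 entospletinib neutrophils and 147 vehicle proximal tubule cells, which limits low genes there.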

Other observations

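Immediate early genes and genes of dissociation stress, 1 list that holds early response and heat shock genes, had members past the fold in some classes. In macrophages 4 of the 11 compared members were lower past the fold (*Fosb*, *Nr4a1*, *Nr4a2*, *Nr4a3*), against 2.44% of all genes compared there, with a list median of -0.84, and *Fosb* was at -0.70 with classes taken from clusters. In neutrophils *Atf3* was higher and *Nr4a2* lower, in classical monocytes the heat shock gene *Hspa1b* was higher (0.95 in the monocytes of 1 cluster alone) and in the proximal tubule *Jun* was higher (0.17 with clusters). The difference between classes was not tested. Genes of MHC class II presentation had medians of 1.94 in neutrophils, 1.00 in classical monocytes, 1.15 in T cells, 0.23 in macrophages and -0.73 in endothelial cells, where 4 of 4 compared members lay below the median gene. These medians were 0.23 and -0.002 in neutrophils and macrophages and -0.12 in endothelial cells with classes taken from clusters, 0.26 in T cells with a stricter gate, and -0.21 in the monocytes of the cluster that holds most entospletinib monocytes. The common receptor chain gene *Csf2rb* was lower past the fold in neutrophils, classical monocytes and macrophages, and at -0.87 in neutrophils and -0.80 in macrophages with classes taken from clusters.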
